A study of Homo sapiens with 12 samples.

Results

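The genes described here are 44 genes of mitosis and the spindle, chosen by symbol from a list of mitotic cyclins and kinases, kinetochore and checkpoint components, spindle proteins and cytokinesis factors. All 44 were among the 28278 genes of the deposited count table, and all 44 passed the filter on low counts that left 15805 genes for testing. They were measured by RNA sequencing in K562, a human erythroleukaemia line that carries the BCR-ABL1 fusion, divides continuously and takes on erythroid features under sodium butyrate, an inhibitor of histone deacetylases. The study compared unedited cells (WT) with cells in which HRG1 was knocked out (HRG1-KO, KO below), where HRG1 is the heme transporter encoded by SLC48A1. Cells of each genotype were left untreated or received 0.75 mM sodium butyrate 24 h after plating and again 48 h later, and all cells were harvested 6 h after the later dose. The design text assigns the samples to day 8 of differentiation without relating that day to these hours. Each of the 4 groups, untreated WT, treated WT, untreated KO and treated KO, had 3 libraries, numbered 1 to 3 in the labels. The labels do not say whether the KO cells are 1 clone, how the knockout was made, or whether the 3 libraries of a group came from separate cultures, so the p-values measure the spread between these libraries, which may be technical.

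Entry into mitosis is driven by CDK1 bound to B-type cyclins, which the CDC25 phosphatases activate and which the kinases PLK1 and AURKA accompany at centrosomes and spindle poles. The NDC80 complex then ties kinetochores to microtubules, and the spindle checkpoint, with TTK at its head, holds back CDC20 and the anaphase-promoting complex until all chromosomes are attached. Transcripts of these genes build up towards late G2 phase and mitosis and are low in cells that have left the cycle, so in a bulk sample their level depends on how many cells are in those phases. In bulk RNA, fewer cells in a phase and less RNA per cell cannot be told apart. Many of these promoters are held down outside G2 phase by the MuvB complexes (DREAM), which bind an element called the cell cycle genes homology region, with the letters TTTGAA or TTCGAA, and many also hold CCAAT boxes, the binding motif of the activator NF-Y.

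The promoters were shown because the genes move together through the cell cycle and because both motifs could be read from sequence. RefSeq promoter windows on GRCh38.p14, running from 250 bases before to 50 bases after the gene start, were matched for 37 of the 44 genes. The genes without a window were FOXM1, AURKA, BIRC5, BUB3, TTK, TPX2 and UBE2C. Below are the 170 bases before the start of each gene that passed the test in any comparison and has a window, 5′ to 3′ on the strand of the gene, with every match of the element and of the CCAAT box in capitals on either strand. On the reverse strand TTTGAA reads TTCAAA, while a reversed CCAAT box reads ATTGG. Motifs that touch or overlap run together, and the closing capitals of the ECT2 line open a CCAAT that continues past the printed bases.
HMMR (chr5:163460462-163460631, plus strand): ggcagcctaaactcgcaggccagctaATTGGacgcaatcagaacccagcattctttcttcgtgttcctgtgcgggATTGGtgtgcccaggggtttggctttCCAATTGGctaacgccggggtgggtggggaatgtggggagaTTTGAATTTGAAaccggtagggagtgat
NUF2 (chr1:163321784-163321953, plus strand): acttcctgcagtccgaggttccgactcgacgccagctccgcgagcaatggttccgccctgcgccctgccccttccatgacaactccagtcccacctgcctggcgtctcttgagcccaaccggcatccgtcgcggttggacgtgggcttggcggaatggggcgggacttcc
CDK1 (chr10:60778161-60778330, plus strand): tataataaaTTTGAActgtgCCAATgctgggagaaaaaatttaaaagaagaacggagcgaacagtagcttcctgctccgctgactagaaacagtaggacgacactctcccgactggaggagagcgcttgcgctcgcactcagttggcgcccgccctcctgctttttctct
CDCA8 (chr1:37692346-37692515, plus strand): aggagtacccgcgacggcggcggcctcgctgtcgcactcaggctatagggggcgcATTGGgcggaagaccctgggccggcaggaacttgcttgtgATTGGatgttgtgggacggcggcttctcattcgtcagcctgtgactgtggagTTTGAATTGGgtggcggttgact
ANLN (chr7:36389692-36389861, plus strand): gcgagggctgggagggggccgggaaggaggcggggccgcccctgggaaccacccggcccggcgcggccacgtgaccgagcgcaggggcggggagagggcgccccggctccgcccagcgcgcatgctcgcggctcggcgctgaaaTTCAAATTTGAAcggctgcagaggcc
ECT2 (chr3:172750556-172750725, plus strand): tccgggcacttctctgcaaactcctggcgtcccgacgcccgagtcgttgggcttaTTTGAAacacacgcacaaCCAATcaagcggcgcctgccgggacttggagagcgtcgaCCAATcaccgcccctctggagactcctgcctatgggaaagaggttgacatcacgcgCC
DLGAP5 (chr14:55191586-55191755, minus strand): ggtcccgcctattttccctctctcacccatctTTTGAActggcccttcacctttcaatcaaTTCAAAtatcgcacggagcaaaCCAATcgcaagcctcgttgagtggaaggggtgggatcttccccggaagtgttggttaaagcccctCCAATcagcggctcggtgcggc

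In HMMR, the element TTTGAA stood in tandem, its copies opening 28 and 22 bases before the start. ANLN held the same pair as an inverted repeat, opening 26 and 20 bases before the start. In CDCA8 the element opened 23 bases before the start, whereas in CDK1 and ECT2 it lay farther upstream, opening at 161 and 115 bases. ECT2 also had a match opening at base 35 after the start. In DLGAP5 matches opened 138 and 109 bases before the start and at base 4 after it. The NUF2 stretch held neither motif, its match of TTTGAA opening at base 17 after the start. Over the whole window, TTTGAA or TTCGAA was present in 27 of the 37 promoters (73.0%), against 16.6% of the 27305 promoters in the table. CCAAT was present in 29 of 37 (78.4%) against 35.7%, and both motifs together in 23 of 37 (62.2%) against 6.58%. A match of letters describes the window and is not shown to be a bound site.

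Library totals ranged from 19963594 to 30348538 counts, and 3 counts corresponded to between 0.0989 and 0.150 CPM (counts scaled to a common library size, with TMM factors for library composition). SLC48A1 held 1357 to 1945 counts in the 6 WT libraries and 55 to 313 in the 6 KO libraries, and it was lower in KO in both settings (log2 fold change -3.63, SE 0.35, edgeR adjusted p 1.82e-05 untreated and -3.07, SE 0.34, adjusted p 7.41e-05 treated). All 9 genes of a list marking erythroleukaemia cells were present, with summed levels of 3517 to 56457 CPM. Ribosomal RNA28SN5 took 2.30% to 5.63% of counts in the libraries numbered 1 and 0.673% to 2.86% in the others, replicate 1 being the highest within each group, and mitotic genes also differed by number, as described beside each result. Untreated KO replicate 2 held the highest level of the 12 libraries for 17 of the 44 genes.

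Per kilobase of exon (CPM divided by the summed exon length of the gene in GENCODE v29), CDK1 had the highest level in untreated WT, at 131 ± 3.83 CPM per kb (SD, n = 3). Topoisomerase TOP2A, which untangles sister chromatids, followed at 107 ± 12.8, the securin PTTG1 at 103 ± 7.68 and the CDK-binding proteins CKS2 and CKS1B at 103 ± 13.1 and 99.5 ± 12.2, and the spread of these neighbours overlapped. The cytokinesis factor ECT2 had the lowest level but 1, with 8.74 ± 0.694 CPM per kb. UBE2C, the ubiquitin-conjugating enzyme of the anaphase-promoting complex, was far below every other listed gene at 0.933 ± 0.558 CPM per kb. Its values of 0.433, 1.86 and 1.31 CPM in untreated WT and 0.919, 2.38 and 2.22 CPM in treated KO rested on few reads, and its fold changes carry little precision. Reads can be shared with neighbours or copies at some loci. PTTG2 and PTTG3P, copies of PTTG1, held at most 2 and 14 counts in a library, the antisense genes HMMR-AS1 and PRC1-AS1 at most 18 and 23 counts, and the readthrough gene BUB1B-PAK6 at most 10 counts. EXOSC9, which overlaps CCNA2, was abundant, with 1175 to 2594 counts in a library and a level of 65.6 ± 4.81 CPM in untreated WT and 104 ± 31.5 CPM in untreated KO (SD, n = 3), so CCNA2 values are uncertain where strand was not used. Protein-coding genes also overlap FOXM1 (ITFG2 and RHNO1), PLK1 (ERN2), KIF20A (CDC23), ANLN (MATCAP2), CDC25C (FAM53C) and SPC25 (NOSTRIN). Their levels are not given here, and the same limit applies to these listed genes.

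**Figure D1:**
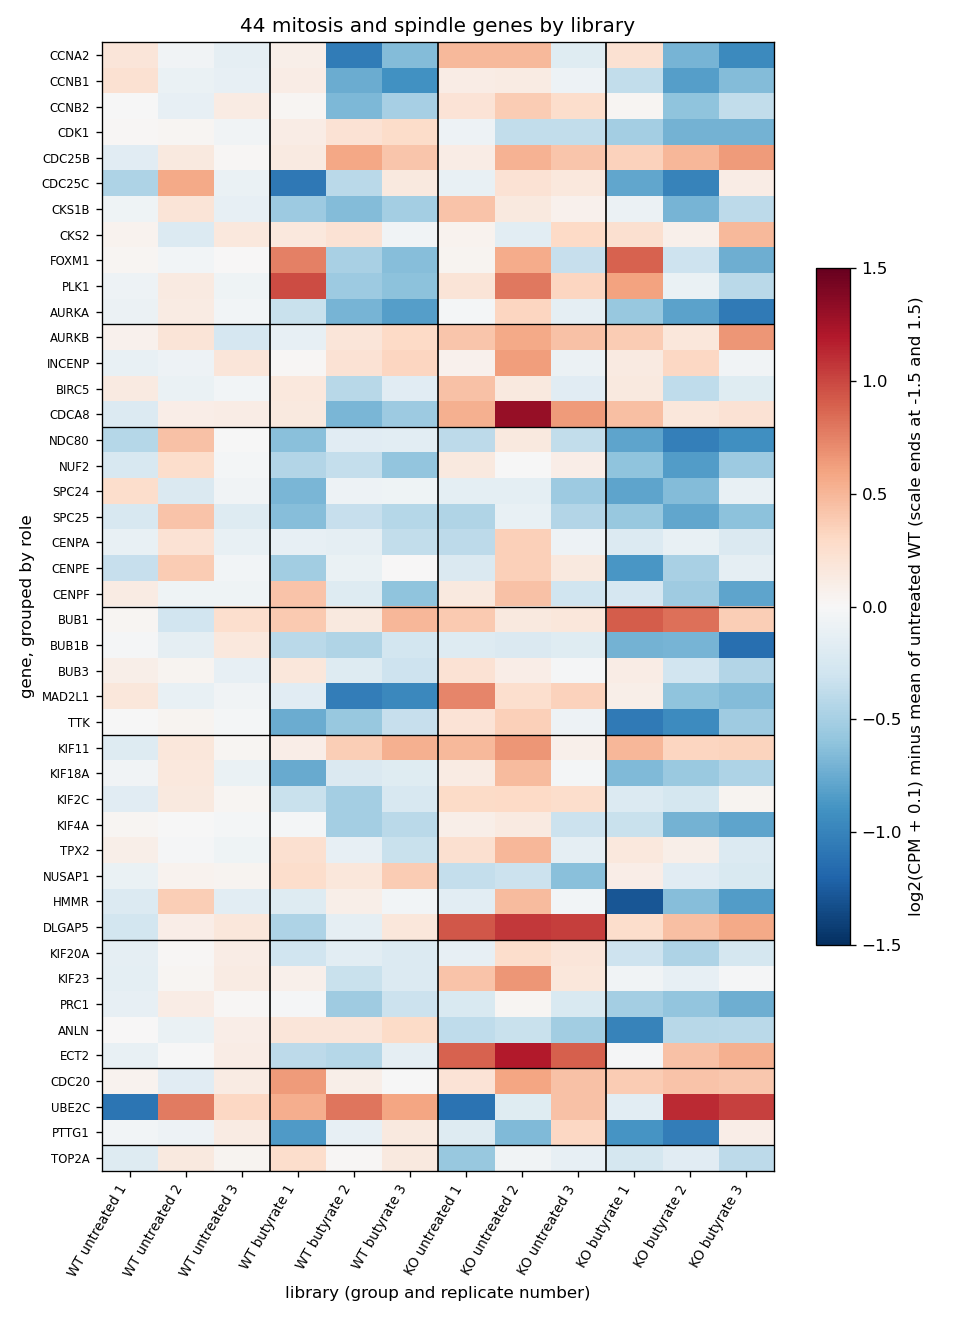
Level of each of the 44 genes (rows, grouped by role) in each of the 12 libraries (columns), as log2 CPM minus the mean of untreated WT, so that red is above and blue below untreated WT. Most rows turn blue in treated KO, ECT2 and DLGAP5 are red in all untreated KO libraries, and FOXM1 and PLK1 are red in replicate 1 of both treated groups.

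The comparison of treated with untreated WT asked how butyrate alters these genes in unedited cells. No listed gene passed the test (edgeR quasi-likelihood, Benjamini-Hochberg adjusted p under 0.05), against 2.35% of all tested genes called. Of the 44, 8 had an unadjusted p under 0.05, all lower in treated cells, against 18% of all tested genes at that limit in either direction. The median log2 fold change of the 44 genes was -0.21, with 30 below 0 and 14 above it, beside a median of 0.02 over all tested genes. The lowest values belonged to the checkpoint protein MAD2L1, the spindle pole kinase AURKA and CKS1B. With the replicate number as a block, MAD2L1 (log2 fold change -0.72, edgeR adjusted p 0.0174) and AURKA (-0.62, adjusted p 0.0445) passed, both lower, against 8.61% of all tested genes called and 3.14% called lower. DESeq2 called 1 of the 44, CKS1B, lower (adjusted p 0.0498), with 1331 of all tested genes called.

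MAD2L1 stood at 144, 119 and 123 CPM in replicates 1, 2 and 3 of untreated WT and at 114, 62.4 and 65.6 CPM in treated WT. All treated libraries lay below all untreated ones, with treated replicate 1 close to the lowest untreated library. Its log2 fold change was -0.67 (SE 0.27, edgeR adjusted p 0.216). AURKA went from 86.9, 101 and 89.8 CPM to 73.0, 57.1 and 52.1 CPM, again without overlap, with a log2 fold change of -0.61 (SE 0.20, adjusted p 0.136). CKS1B went from 140.1, 168 and 134 CPM to 101, 93.4 and 104 CPM with a log2 fold change of -0.57 (SE 0.19, adjusted p 0.137), and its groups did not overlap either. At the upper end stood UBE2C (log2 fold change 0.48, SE 0.64, adjusted p 0.754), whose levels of 1.56, 1.88 and 1.62 CPM in treated WT overlapped with the untreated ones. CDC25B, a phosphatase that activates CDK1, was at 46.3, 57.3 and 52.7 CPM untreated and 57.0, 77.3 and 69.3 CPM treated (log2 fold change 0.38, SE 0.18, adjusted p 0.303). KIF11, the motor that pushes spindle poles apart, was at 59.7, 77.1 and 69.8 CPM untreated and 73.4, 88.5 and 99.4 CPM treated (log2 fold change 0.34, SE 0.19, adjusted p 0.396). The highest treated libraries of CDC25B and KIF11 exceeded all untreated ones, while the lowest lay within the untreated range.

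The 2 groups did not overlap for 15 of the 44 genes, 12 lower and 3 higher in treated WT, against 21.7% of all tested genes (10.4% lower). Among the 12 were 2 subunits of the NDC80 complex, NUF2 (log2 fold change -0.48, SE 0.18) and SPC25 (-0.50, SE 0.20), and the checkpoint kinases TTK (-0.54, SE 0.20) and BUB1B (-0.38, SE 0.17). The 3 higher were CDK1 (0.20, SE 0.16), the microtubule-bundling protein NUSAP1 (0.27, SE 0.16) and the contractile ring protein ANLN (0.22, SE 0.18). For 38 of the 44 genes the 95% interval of the log2 fold change lay wholly within 1 log2 unit of 0, so a doubling or a halving was outside it. Without the 4 libraries numbered 1, MAD2L1, AURKA and CCNB1 passed, with 1884 of all tested genes called.

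For some listed genes, replicate 1 of treated WT departed from its group. PLK1, the kinase that matures centrosomes, stood at 128, 147 and 129 CPM in untreated WT and at 265, 92.3 and 87.5 CPM in treated WT. Treated replicate 1 was thus the highest of the 6 libraries and the other treated libraries were the lowest. The log2 fold change of PLK1 was 0.14 (SE 0.39, edgeR adjusted p 0.901) and turned to -0.59 (adjusted p 0.205) without treated WT replicate 1. FOXM1, the transcription factor that activates many G2 genes, behaved alike, at 35.0, 33.5 and 34.7 CPM untreated and 58.3, 24.5 and 22.2 CPM treated. In WT, 7 genes (CCNA2, CCNB1, FOXM1, PLK1, CDCA8, CENPF and MAD2L1) exceeded both other treated libraries by more than 1.5 times in treated replicate 1, and in KO 4 did (CCNA2, FOXM1, PLK1 and MAD2L1). Over the 44 genes, treated replicate 1 was the highest of its group for 18 and the lowest for 17 in WT. In KO it was the highest for 21 and the lowest for 11. Paired by number, 22 of the 44 genes were lower in treated WT for number 1, 33 for number 2 and 30 for number 3. For 17 of 44 the treated library was lower under all 3 numbers, against 22.01% of all tested genes.

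**Figure D2:**
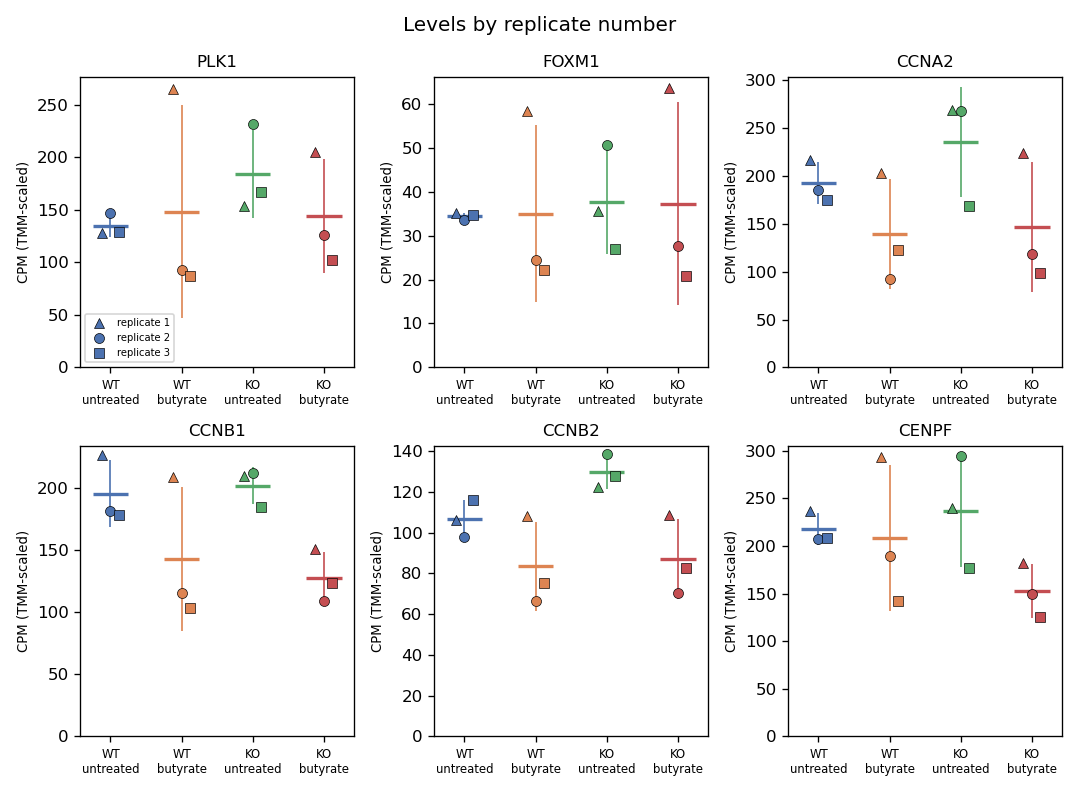
CPM (vertical axis, from 0) of PLK1, FOXM1, CCNA2, CCNB1, CCNB2 and CENPF in the 4 groups. Symbols are the libraries by replicate number, the horizontal line is the mean and the vertical line 1 SD to each side (n = 3). Triangles, the libraries numbered 1, lie above the other symbols in both treated groups in all 6 panels.

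The same question was asked in KO cells, where 4 of the 44 genes fell with butyrate and none rose, against 3.4% of all tested genes called in either direction and 0.595% called lower. They were the checkpoint kinase TTK, the spindle protein HMMR, the kinase AURKA and the kinetochore protein NUF2. The median log2 fold change of the 44 was -0.44, with 39 below 0 and 5 above it, beside a median of 0 over all tested genes. At an unadjusted p under 0.05 there were 23, of which 22 were lower and BUB1 was higher, against 19.8% of all tested genes. Scaling by library size alone moved the median of all tested genes up by 0.121, and the 44 then had a median of -0.32 with 33 below 0 and 11 above it. With the replicate block, 14 of the 44 passed, all lower, against 11.7% of all tested genes called and 3.92% called lower.

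TTK (MPS1, chr6:80004649-80042527 on GRCh38), which starts checkpoint signalling at unattached kinetochores, stood at 64.4, 71.6 and 52.9 CPM in untreated KO and at 26.6, 28.9 and 38.4 CPM in treated KO. The groups did not overlap, with treated replicate 3 the nearest to the untreated ones. TTK fell to 0.498 of its untreated level, a log2 fold change of -1.01 with an SE of 0.20 (edgeR adjusted p 0.0209). HMMR, a microtubule-binding protein of the spindle, went from 71.0, 111 and 77.1 CPM to 32.6, 51.0 and 44.3 CPM, all treated libraries being lower, with a log2 fold change of -1.02 (SE 0.24, adjusted p 0.0381). AURKA (chr20:56369390-56392215 on GRCh38) went from 90.4, 116 and 84.0 CPM to 62.3, 53.0 and 44.3 CPM without overlap (log2 fold change -0.86, SE 0.20, adjusted p 0.0375). NUF2 held 70.7, 63.8 and 68.3 CPM untreated and 42.2, 35.6 and 43.9 CPM treated, the most even of the 4 falls across numbers, with a log2 fold change of -0.74 (SE 0.18, adjusted p 0.0414). Leaving out 1 library at a time, TTK passed in 9 of 12 fits, HMMR and NUF2 in 3 and AURKA in 2, and the count of genes called ranged from 0 to 8. It was 0 without untreated KO replicate 1 or 2 or treated KO replicate 2, 1 without untreated WT replicate 3, treated WT replicate 2 or 3, untreated KO replicate 3 or treated KO replicate 3, and 8 without treated WT replicate 1. Over all tested genes, the fits with 0 called 113, 48 and 85, against 537 in the main fit. The fits with 1 called 415, 357, 388, 286 and 250, and the fit with 8 called 1039. The fits with library size alone and with only the 2 KO groups also called 0 of the 44, and 472 and 479 of all tested genes. There the log2 fold changes of the 4 genes ranged from -0.998 to -0.62.

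By role, the genes that drive entry into mitosis had a median log2 fold change of -0.57 in KO, with 9 of 11 below 0. CCNB1, the cyclin that activates CDK1 at mitotic entry, went from 209.7, 212 and 185 CPM to 151, 109 and 123 CPM (log2 fold change -0.66, SE 0.25, adjusted p 0.168, and 0.0350 with the block). Its treated libraries all lay below the untreated ones. In WT its change was -0.45 (SE 0.25, adjusted p 0.379) from 227, 181 and 179 CPM to 209, 116 and 103 CPM, where treated replicate 1 lay among the untreated libraries. CDK1 was at 254, 208 and 206 CPM untreated and 187, 163 and 163 CPM treated in KO (log2 fold change -0.38, SE 0.16, adjusted p 0.205), without overlap. CKS1B (-0.59, adjusted p 0.109) passed with the block (adjusted p 0.0452), whereas its relative CKS2 stood at 0.20 (SE 0.19). PLK1 went from 153, 232 and 167 CPM to 205, 126 and 102 CPM, with a log2 fold change of -0.35 (SE 0.39, adjusted p 0.669), and without the 4 libraries numbered 1 the change was -0.83 (adjusted p 0.0307).

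Of the chromosomal passenger complex, which corrects faulty attachments, all 4 subunits were below 0 in KO with a median of -0.19 and none passed. The kinase subunit AURKB stood at 75.5, 84.1 and 76.8 CPM untreated and 73.7, 63.8 and 89.5 CPM treated (log2 fold change -0.06, SE 0.19, adjusted p 0.908), and with library size alone the value was 0.06. In WT it was at 59.2, 64.5 and 47.3 CPM untreated and 51.9, 64.0 and 69.4 CPM treated (0.12, SE 0.19, adjusted p 0.808). The groups overlapped in both genotypes. The 7 centromere and kinetochore genes were all below 0 in both genotypes, with medians of -0.26 in WT and -0.58 in KO. In KO, NDC80 (-0.73, SE 0.24) and the kinetochore motor CENPE (-0.58, adjusted p 0.226) passed with the block (adjusted p 0.0436 and 0.0396). CENPA, the histone variant that marks centromeres, was at -0.18 (SE 0.22).

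Of the 5 checkpoint genes, 4 were below 0 in each genotype. In KO, MAD2L1, which inhibits CDC20, went from 212, 153 and 163 CPM to 136, 84.4 and 81.3 CPM (log2 fold change -0.81, SE 0.27, adjusted p 0.124). BUB1B went from 83.5, 81.8 and 84.3 CPM to 58.3, 58.7 and 43.6 CPM (-0.64, SE 0.17, adjusted p 0.0595). For both, every treated library lay below every untreated one, and both passed with the block (adjusted p 0.00778 and 0.0287). The exception was the kinase BUB1, which was higher in treated KO (0.48, SE 0.20, adjusted p 0.212), its libraries standing at 199.9, 169 and 172 CPM untreated and 287, 269.7 and 198 CPM treated, and at 0.34 (SE 0.20) in WT. BUB1 and BUB1B are paralogues with distinct roles, BUB1 at centromeres and BUB1B as part of the inhibitor of CDC20.

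Among the 8 spindle motors and spindle proteins, 7 were below 0 in KO. The kinesins KIF18A, which dampens chromosome movement (-0.76, adjusted p 0.0719), and KIF4A, which travels on chromosome arms (-0.58, adjusted p 0.128), passed with the block (adjusted p 0.0245 and 0.0373). So did DLGAP5, which stabilises kinetochore fibres (-0.58, block adjusted p 0.0263). KIF11 (-0.05, SE 0.19) and the AURKA activator TPX2 (-0.20, SE 0.21) were nearer 0. NUSAP1 was higher in treated cells of both genotypes without overlap (0.27 in WT, adjusted p 0.425, and 0.34 in KO, adjusted p 0.278). The 5 cytokinesis genes were all below 0 in KO, with a median of -0.47. ECT2, the exchange factor that switches on RhoA at the cell equator, was at -0.66 (adjusted p 0.0797, and 0.0235 with the block), and ANLN was at -0.17 (SE 0.18).

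The 3 genes of anaphase onset did not share a direction and none passed. CDC20, the activator of the anaphase-promoting complex, had a log2 fold change of 0.27 (SE 0.20) in WT and -0.02 (SE 0.20) in KO. PTTG1, which holds separase inactive until anaphase, was at -0.22 (SE 0.34) and -0.39 (SE 0.34). UBE2C had the highest value of the 44 genes in both genotypes, 0.48 (SE 0.64) in WT and 0.98 (SE 0.64, adjusted p 0.434) in KO, where it was at 0.428, 0.904 and 1.44 CPM untreated and the groups overlapped. TOP2A was at 537, 682 and 634 CPM in untreated and 736, 621 and 683 CPM in treated WT (0.14, SE 0.19, adjusted p 0.765). In KO it was at 413, 595 and 564 CPM untreated and 510.3, 547 and 469.7 CPM treated (-0.04, SE 0.19, adjusted p 0.940), and library size alone turned the value to 0.07. Its groups overlapped in both genotypes, and a doubling or halving was outside the 95% interval (from -0.27 to 0.55 in WT and from -0.45 to 0.37 in KO).

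**Figure D3:**
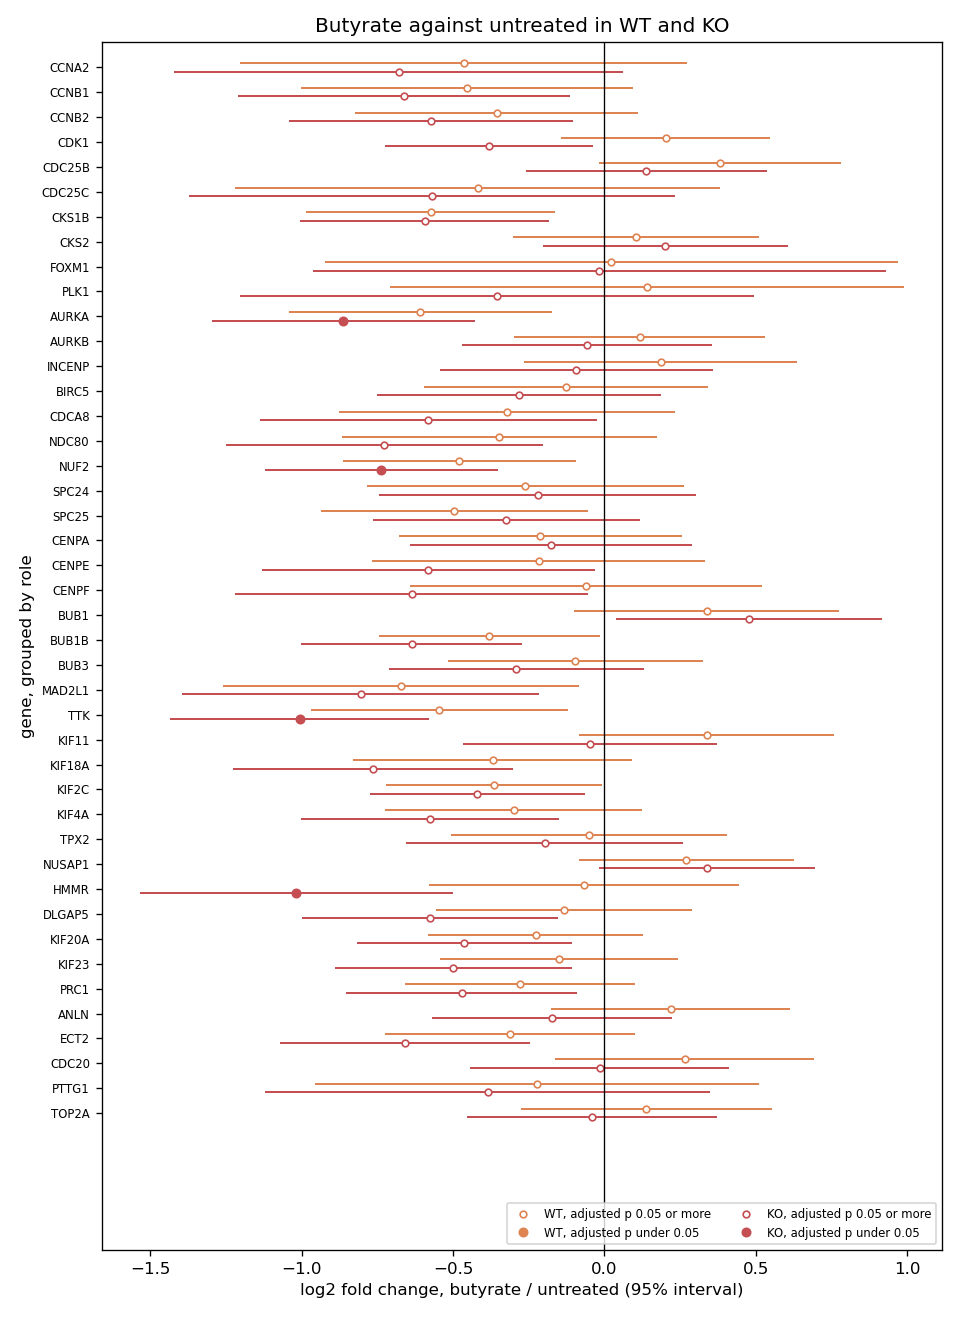
Log2 fold change of treated over untreated cells (horizontal axis) with its 95% interval for 43 of the 44 genes (vertical axis, by role) in WT (orange) and KO (red). Filled points passed the test and UBE2C is left out for its wide interval. TTK, HMMR, AURKA and NUF2 are the filled points, all in KO and left of 0.

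Groups did not overlap for 22 of the 44 genes in KO, 21 of them lower in treated cells, against 24.4% of all tested genes (11.8% lower). The gene that was higher was NUSAP1. Paired by number, 32, 40 and 34 of the 44 were lower in treated KO for numbers 1, 2 and 3, and 29 were lower under all 3 numbers, against 27.0% of all tested genes. Without the 4 libraries numbered 1, 15 of the 44 passed, all lower, with 2164 of all tested genes called. The direction was shared between genotypes for 35 genes, 30 below 0 in both and 5 above 0 in both, and the other 9 were above 0 in WT and below 0 in KO. Comparisons of butyrate in WT and in KO have no library in common, but they are not independent. Deviations from the group mean correlated between same-numbered WT and KO libraries, at 0.210 to 0.361 untreated and 0.315 to 0.595 treated. The share of all tested genes with a shared direction was not measured.

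Markers of some other cell types also differed between treated and untreated cells. In WT, the lymphoid and epithelial sums overlapped between treated and untreated libraries. The summed level of 6 megakaryocyte markers ranged from 29.2 to 57.8 CPM in untreated and 112 to 224 CPM in treated WT, and from 5.40 to 20.2 CPM and 55.6 to 82.6 CPM in KO, led by ITGA2B, with PF4 at 0. That of 6 fibroblast markers, led by COL1A1, ranged from 2.38 to 5.04 and 43.9 to 109 CPM in WT and from 2.19 to 5.02 and 67.9 to 154 CPM in KO, with LUM and PDGFRA at 3 counts or fewer in every library. The 5 monocyte markers summed to 12.3 to 16.7 and 19.0 to 25.3 CPM in WT and 3.21 to 9.86 and 23.9 to 29.6 CPM in KO, with MARCO at 3 counts or fewer. The 6 lymphoid markers summed to 14.8 to 22.5 and 11.7 to 24.4 CPM in WT and 4.07 to 5.66 and 9.46 to 12.4 CPM in KO, with MS4A1 at 0. The 5 epithelial markers summed to 118 to 162 and 142 to 183 CPM in WT and 50.7 to 74.2 and 22.5 to 32.1 CPM in KO, with KRT5 and KRT14 at 0. Their part in the changes of mitotic genes was not tested.

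Whether butyrate acted differently in the genotypes was tested by the interaction, the log2 fold change in KO minus that in WT. No listed gene passed and neither did any other gene (0% of tested genes called by edgeR, with 3 called under the replicate block, 0.019%, and 86 by DESeq2, none of them listed). At an unadjusted p under 0.05 there were 2 of the 44, HMMR and CDK1, against 4.16% of all tested genes. The median of the 44 was -0.23, with 37 below 0, beside -0.02 over all tested genes, and it was -0.11 with library size alone, which moved the median of all tested genes up by 0.113.

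HMMR stood at 69.1, 102 and 70.9 CPM in untreated and 69.7, 84.3 and 77.4 CPM in treated WT, where the groups overlapped, while in KO the groups did not overlap. Its interaction was -0.95 (SE 0.33, p 0.0144, edgeR adjusted p 0.936). CDK1 in WT was at 272, 272 and 258 CPM untreated and 288, 311 and 324 CPM treated, every treated library being higher, and its interaction was -0.58 (SE 0.22, p 0.0226, edgeR adjusted p 1.00). CENPF, a large kinetochore protein, had the next lowest interaction (-0.57, SE 0.38, adjusted p 1.00). Its levels were 237, 208 and 208 CPM and 293, 189 and 143 CPM in untreated and treated WT and 240.4, 295 and 177 CPM and 182, 150.0 and 125 CPM in KO, and treated WT replicate 1 was the highest of the WT libraries. Without that library the interaction of CENPF was -0.23. At the upper end were UBE2C (0.50, SE 0.90), SPC25 (0.17, SE 0.29) and BUB1 (0.14, SE 0.29), each with an adjusted p of 1.00. SPC25 went from 103, 163 and 106 CPM to 78.3, 95.4 and 90.7 CPM in WT and from 88.7, 112 and 89.9 CPM to 82.0, 70.8 and 79.6 CPM in KO, without overlap in either genotype.

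**Figure D4:**
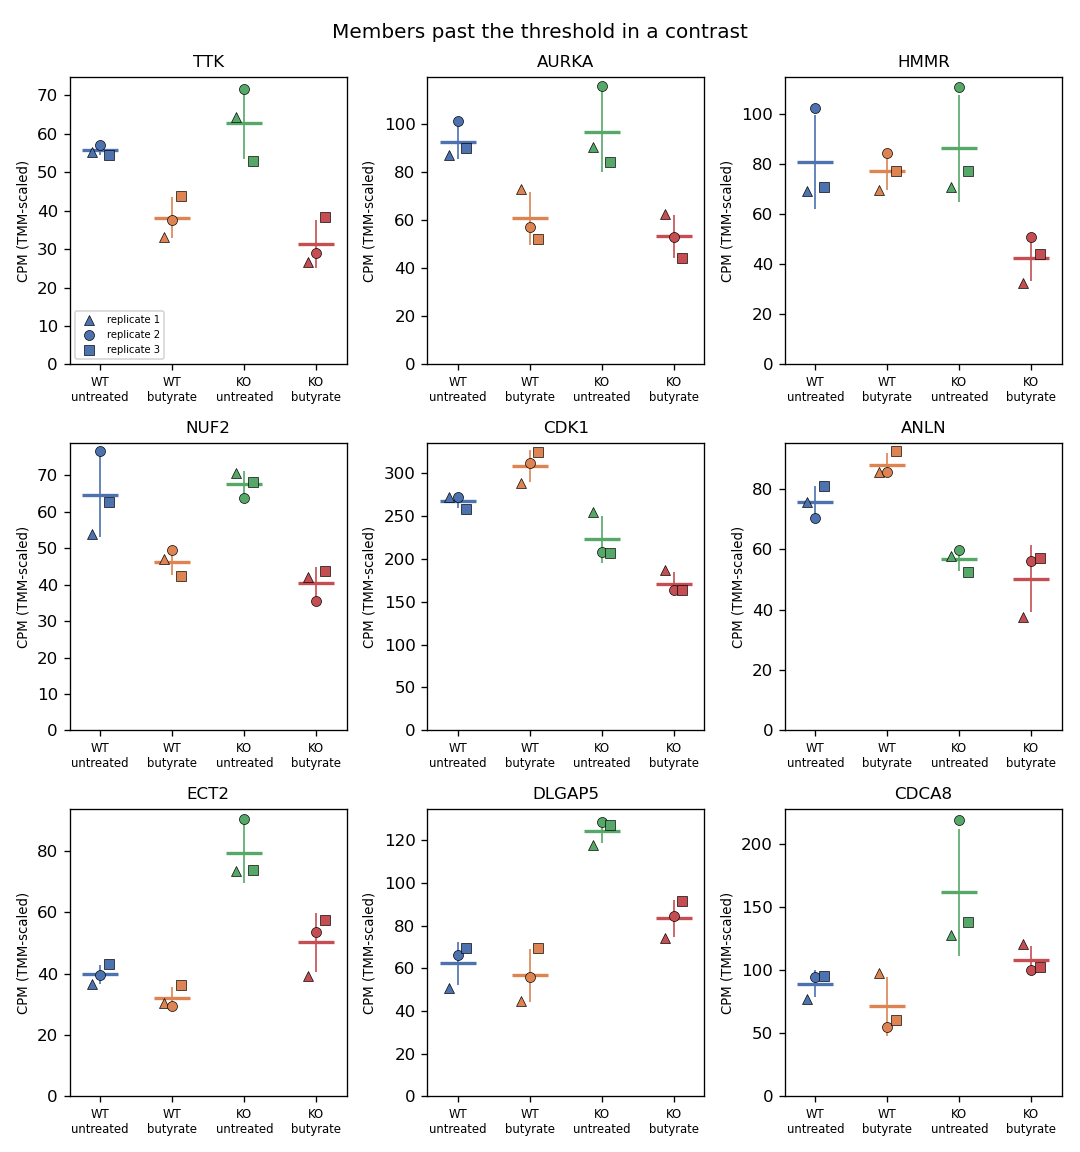
CPM (vertical axis, from 0) of the 9 genes that passed the test in at least 1 comparison, in the 4 groups. Symbols are the libraries by replicate number, the horizontal line is the mean and the vertical line 1 SD to each side (n = 3). The treated KO libraries of TTK, AURKA, HMMR and NUF2 lie below all untreated KO libraries, and those of CDK1 and ANLN lie below all WT libraries.

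KO was then compared with WT in untreated cells. Of the 44 genes 3 were higher in KO and none was lower, against 22.6% of all tested genes called and 11.7% called higher. They were ECT2, DLGAP5 and CDCA8 (borealin), the subunit that helps to place the passenger complex at centromeres. With the replicate block, NUSAP1 was also called, lower in KO (log2 fold change -0.44, adjusted p 0.0495), against 33% of all tested genes. At an unadjusted p under 0.05 there were 8 of the 44, against 34.6% of all tested genes. The median log2 fold change of the 44 was 0.12, with 31 above 0, beside 0.02 over all tested genes. It was 0.02 without untreated KO replicate 2.

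ECT2 stood at 36.7, 39.6 and 43.0 CPM in untreated WT and 73.5, 90.6 and 73.8 CPM in untreated KO. Every KO library was higher, and the log2 fold change was 0.99 (SE 0.19, edgeR adjusted p 0.00254). DLGAP5 stood at 51.0, 66.4 and 69.5 CPM in WT and 118, 128 and 127 CPM in KO, the KO libraries lying close together and far above WT. Its log2 fold change was 1.00 (SE 0.20, adjusted p 0.00295). CDCA8 was at 76.9, 95.03 and 95.7 CPM in WT and 128, 219 and 138 CPM in KO, with replicate 2 far above the other KO libraries (log2 fold change 0.86, SE 0.26, adjusted p 0.0300). Leaving out each of the 12 libraries in turn ended neither the call of ECT2 nor that of DLGAP5. CDCA8 passed in 8 of 12, and without untreated KO replicate 2 its change was 0.55 (adjusted p 0.171).

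Of the 11 genes of mitotic entry, 10 were above 0 in untreated KO and none passed. CCNB2 and PLK1 were higher and CDK1 was lower in KO without overlap. CCNB1 stood at a log2 fold change of 0.05 (95% interval -0.50 to 0.59, adjusted p 0.922), CDK1 at -0.26 (-0.61 to 0.08, adjusted p 0.268), PLK1 at 0.45 (-0.40 to 1.304, adjusted p 0.458) and, outside this group, TOP2A at -0.24 (-0.65 to 0.18, adjusted p 0.419). The intervals of PLK1, CCNA2 and FOXM1 extend past a doubling, while those of CDK1, CCNB1 and TOP2A do not. AURKB was higher in all 3 KO libraries (0.47, SE 0.19, adjusted p 0.10006) and did not pass. The groups did not overlap for 14 of the 44, 10 higher and 4 lower in KO, against 42.3% of all tested genes.

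In treated cells 4 of the 44 genes differed between genotypes, against 19% of all tested genes called, 8.89% lower and 10.1% higher. CDK1, ANLN and HMMR were lower in KO and ECT2 was higher. The median of the 44 was -0.07, with 25 below 0 and 19 above it, beside -0.002 over all tested genes, and with library size alone it was 0.02. At an unadjusted p under 0.05 there were 10 of the 44, against 31.6% of all tested genes. This comparison shares its libraries with the butyrate comparisons above, so the lower HMMR in treated KO rests on the same libraries as its fall with butyrate.

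CDK1 stood at 288, 311 and 324 CPM in treated WT and 187, 163 and 163 CPM in treated KO. The KO libraries were all far below the WT libraries, at 0.556 of their level (log2 fold change -0.85, SE 0.16, edgeR adjusted p 0.00281). ANLN was at 85.7, 85.4 and 92.3 CPM in WT and 37.4, 56.2 and 57.0 CPM in KO, replicate 1 being the lowest KO library (log2 fold change -0.81, SE 0.18, adjusted p 0.00881). HMMR was at 69.7, 84.3 and 77.4 CPM in WT and 32.6, 51.0 and 44.3 CPM in KO, without overlap (log2 fold change -0.85, SE 0.24, adjusted p 0.0245). ECT2 was at 30.3, 29.6 and 36.3 CPM in WT and 39.4, 53.8 and 57.6 CPM in KO, with KO replicate 1 just above the highest WT library (log2 fold change 0.65, SE 0.19, adjusted p 0.0313). With each of the 12 libraries left out in turn, CDK1 and ANLN passed every time, HMMR in 8 fits and ECT2 in 6, and 2 of the 44 genes were called without treated WT replicate 2 or treated KO replicate 3. Of all tested genes, 2014 and 2376 were called in these fits, against 3009 in the main fit. In the fit of the 2 treated groups alone ANLN (adjusted p 0.0517) and ECT2 (0.125) did not pass, nor did HMMR with library size alone (0.0769) or ECT2 without the filter on low counts (0.0566).

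With the block, NDC80 (-0.58, adjusted p 0.0456) and DLGAP5 (0.57, adjusted p 0.0125) were called as well, against 29.2% of all tested genes. CDCA8 stood at 0.60 (SE 0.26, adjusted p 0.129) in treated cells, its KO libraries all above WT. The other genes followed throughout were CCNB1 (-0.16, 95% interval -0.70 to 0.39), PLK1 (-0.04, -0.89 to 0.81), AURKB (0.29, -0.12 to 0.71) and TOP2A (-0.42, -0.83 to -0.0035), whose adjusted p were 0.728, 0.961, 0.333 and 0.155. Groups did not overlap for 10 of the 44, 3 higher and 7 lower in KO, against 33.9% of all tested genes.

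Several of these genotype differences lay on chromosomes whose genes were shifted as a whole. Of the chromosomes that carry listed genes, 3, 14, 7 and 18 had a median KO against WT log2 fold change beyond 0.3 from 0 in both settings, with 1 listed gene on each. ECT2 is on chromosome 3, whose median was 0.45 in untreated and 0.45 in treated cells, and its own changes were 0.99 and 0.65. DLGAP5 is on chromosome 14, with medians of 0.63 and 0.57, and its own changes were 1.00 and 0.56. ANLN is on chromosome 7, with medians of -0.78 and -0.86, and its own changes were -0.41 and -0.81. NDC80 is on chromosome 18, with medians of -0.52 and -0.61, and it stood at -0.23 and -0.61. All 4 had the direction of their chromosome's median in both settings. Of these 4 genes 2 passed in untreated cells (ECT2 and DLGAP5) and 2 in treated cells (ECT2 and ANLN). Of the 40 genes on other chromosomes, 1 passed in untreated cells (CDCA8) and 2 in treated cells (CDK1 and HMMR). The part of the chromosome medians in these results was not tested.

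**Figure D5:**
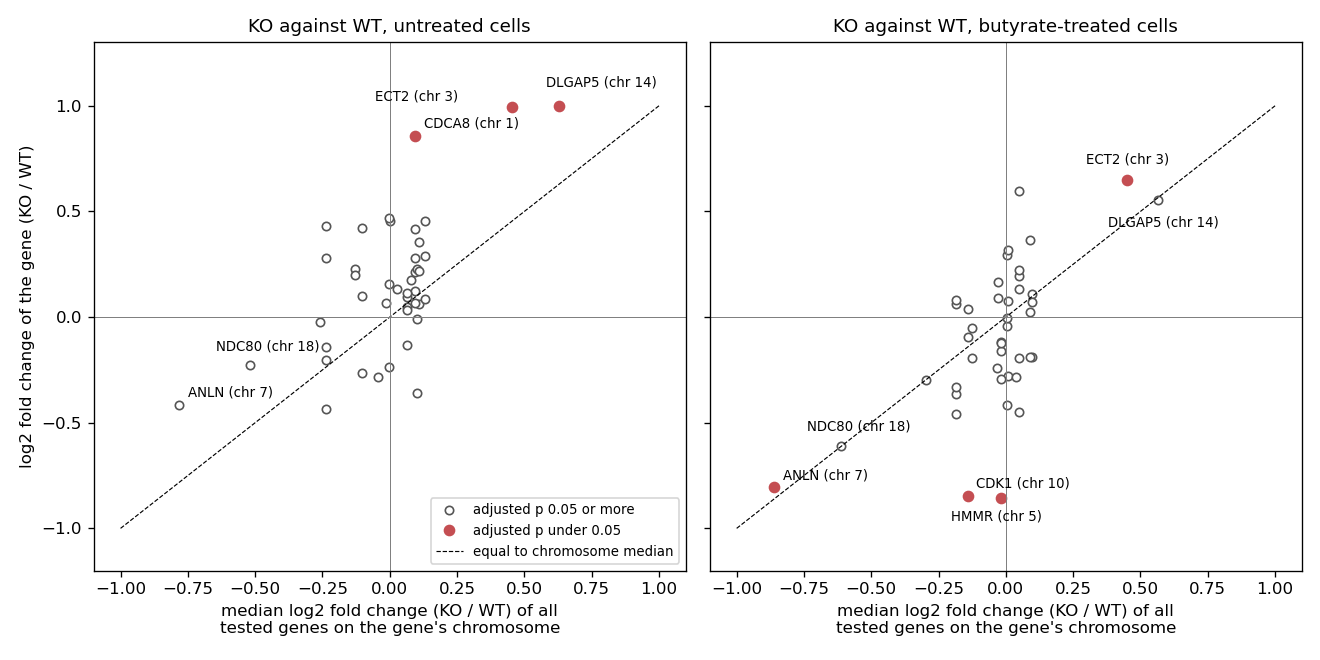
KO against WT log2 fold change of 43 of the 44 genes (vertical axis, UBE2C left out) against the median of all tested genes on the same chromosome (horizontal axis), in untreated (left) and treated (right) cells. Filled points passed the test and the dashed line marks equality with the chromosome median. ANLN, NDC80, DLGAP5 and ECT2 have the sign of their chromosome's median, ECT2 in untreated cells (0.99 against 0.45) being the farthest of the 4 from equality. CDCA8 in untreated and CDK1 and HMMR in treated cells are on chromosomes with medians nearer 0 (0.10, -0.14 and -0.02).

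Further genes of mitosis were read from lists drawn up by function. Of 37 other spindle, mitotic kinase and cytokinesis genes, 1 fell with butyrate in WT, the kinase PBK (log2 fold change -1.06, SE 0.25, edgeR adjusted p 0.0485), and 1 fell in KO, DEPDC1 (-1.22, SE 0.22, adjusted p 0.0155). Of the list, 24 were below 0 in WT (median -0.13) and 29 in KO (median -0.22), and with the replicate block 2 fell in WT and 8 in KO. Of all tested genes, the block called 3.14% lower in WT and 3.92% lower in KO. Without it, 2.35% were called in WT in either direction, and 0.595% were called lower in KO. The proliferation marker MKI67 stood at 0.33 (SE 0.35, adjusted p 0.686) in WT and 0.10 (SE 0.35, adjusted p 0.916) in KO. Its libraries were at 158, 157 and 175 CPM in untreated and 283, 165 and 167 CPM in treated WT. In KO they were at 172, 268 and 142 CPM untreated and 315, 195 and 113 CPM treated. Replicate 1 was thus its highest treated library in both genotypes, as for PLK1 and FOXM1. Of 17 genes of the anaphase-promoting complex and its partners, 1 fell in KO (ANAPC1, -0.72, SE 0.17, adjusted p 0.0389) and none passed in WT, and with the block 2 fell in each genotype. No gene of 8 condensin, 14 cohesin and 30 other kinetochore genes passed for butyrate in either genotype, and their medians were -0.24, -0.25 and -0.16 in WT and -0.36, -0.40 and -0.32 in KO. In the cohesin list, 14 of 14 genes were below 0 in KO. With the block, 1 cohesin and 1 kinetochore gene fell in each genotype.

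Among 30 genes of DNA replication, none passed for butyrate in either genotype, and their medians were -0.13 in WT and -0.18 in KO. With the block, 1 fell in WT, and in KO 1 fell and 1 rose, where 8.61% (WT) and 11.7% (KO) of all tested genes were called. None of the 13 genes of MuvB, DREAM and MYBL2, the regulators that act on the promoter element above, passed in either genotype, and with the block 2 fell in KO. Among them MYBL2 was at 0.09 (SE 0.21, adjusted p 0.883) in WT and 0.21 (SE 0.22, adjusted p 0.630) in KO. Of 7 CDK inhibitors, 5 were tested. CDKN2D (p19), an inhibitor of CDK4 and CDK6, rose in both genotypes (1.80 in WT, SE 0.33, edgeR adjusted p 0.0190, and 2.02 in KO, SE 0.34, adjusted p 0.00995). It stood at 4.87, 6.26 and 4.44 CPM in untreated and 27.1, 13.6 and 13.8 CPM in treated WT, and at 2.84, 3.23 and 4.01 CPM and 16.4, 11.99 and 12.7 CPM in KO, without overlap in either. CDKN1A (p21), which blocks CDK activity in arrested cells, stood at 14.4, 31.5 and 21.9 CPM in untreated WT, 26.0, 63.5 and 50.7 CPM in treated WT, 1.44, 2.52 and 3.38 CPM in untreated KO and 6.11, 37.1 and 24.9 CPM in treated KO. It rose in KO (3.20, SE 0.60, adjusted p 0.0179) from a level below that of WT (-3.19, SE 0.60, adjusted p 0.00228). In WT the change was 1.05 (SE 0.55, adjusted p 0.345, and 0.0517 with the block). The interaction of CDKN1A did not pass (2.15, SE 0.79, edgeR adjusted p 0.979, and 0.133 with the block). Replicate 1 was the lowest treated library of CDKN1A in both genotypes.

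Between genotypes in untreated cells, the microtubule protein CKAP2 (0.75, SE 0.19, adjusted p 0.0119) and the AURKA activator BORA (0.83, SE 0.21, adjusted p 0.0129) were higher in KO, both on chromosome 13, whose median was 0.94. The condensin subunit NCAPG2, on chromosome 7, was lower (-1.21, SE 0.28, adjusted p 0.00814). In treated cells ASPM (-0.81, SE 0.26, adjusted p 0.0438), which organises spindle poles, and FAM83D (-0.98, SE 0.29, adjusted p 0.0318) were lower in KO. FAM83D was also lower in untreated KO (-0.92, SE 0.29, edgeR adjusted p 0.0376). CKAP2 was also higher (0.68, SE 0.19, adjusted p 0.0230) and NCAPG2 also lower (-1.19, SE 0.28, adjusted p 0.0108) in treated KO. BORA passed only in untreated and ASPM only in treated cells. In each setting, 4 of 37 further spindle genes passed (3 higher and 1 lower untreated, 1 higher and 3 lower treated), as did 2 of 17 genes of the anaphase-promoting complex, 1 of 8 condensin genes, 2 of 13 MuvB and DREAM genes, 1 of 30 replication genes and no cohesin gene, beside 22.6% (untreated) and 19% (treated) of all tested genes. With the block, 6 of 37 further spindle genes passed in each setting, 6 and 3 of the anaphase-promoting complex, 2 and 1 condensin, 4 and 5 MuvB and DREAM, 6 and 6 replication, and 2 and 0 cohesin genes in untreated and treated cells. The block called 33% (untreated) and 29.2% (treated) of all tested genes.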

How the data were processed

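The authors deposited raw read counts by gene symbol, in 1 table with a column for each of the 12 libraries. Per the submitters' processing notes, FastQC 0.12.1, STAR 2.7.11b and hg38 were used, and the counting tool, annotation and use of strand are not given in the sources used here. Total RNA was extracted with TRIzol, per the labels' protocols. Without stated strand, reads of overlapping and antisense genes cannot be told apart. Columns were matched to samples by library name, and 0 columns were unused.

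Counts were analysed in R 4.3.3 with edgeR 4.0.16 (filterByExpr, minimum count 10, TMM scaling, quasi-likelihood F-test on all 12 libraries with 1 mean per group, common biological coefficient of variation 0.384). In each of 5 contrasts the Benjamini-Hochberg method was applied over 15805 genes, with a threshold of 0.05. Log2 fold changes have standard errors (SE). CPM are TMM-scaled, and 3 counts were taken as the floor, which covers counting error only. With 3 libraries against 3, an exact permutation test cannot give p below 0.1, so single genes were tested in the fit across all genes. Values per number in the text are differences of log2 CPM with a prior count of 2. Alternatives were DESeq2 1.42.0, library size alone, RLE factors, other filters, the replicate block, only the groups compared, and leaving out libraries.

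Samples were paired by replicate number in the block fit and in the values by number, while the main fit had no block. Deviations of same-numbered libraries from their group means correlated between 0.147 and 0.595 over genes in every pair of the 4 comparisons, which is the basis for the pairing. Differently numbered libraries reached at most 0.186, 0.123, 0.0692 and 0.343 (butyrate in WT and KO, genotype untreated and treated), above the smallest same-numbered value, 0.315, in the treated comparison. No replicates of a group were the same library (smallest chi-square per degree of freedom 38.9). RefSeq positions matched 15172 (96.0%) of tested genes. Data were simulated for butyrate in KO over 15805 genes. In them 67, 67 and 66 genes, drawn at random whatever their level, were changed 1.5-fold, 2-fold and 4-fold, up or down. All other genes were left unchanged, and no shared effect of replicate number was put in. The test called 1.54% of genes changed 1.5-fold, 7.69% of those changed 2-fold and 68.2% of those changed 4-fold, with 3 false calls.

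The 44 genes and all lists were chosen with earlier results of these data known. Any of the 44 could be named. Library values are given for CCNB1, CDK1, PLK1, AURKB and TOP2A and, in each contrast, for called genes, or for the 3 highest and 3 lowest changes where fewer than 3 were called. Library values of other genes shown were chosen after their values were seen. A result that needs an item withheld from this text is not reported here.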

Additional observations from a re-analysis of the deposited data

Results flagged for a closer look

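The estimated log2 fold change of CDK1 with butyrate was above 0 in WT and below 0 in KO. Neither passed the test (0.20, edgeR adjusted p 0.559 in WT, and -0.38, adjusted p 0.205 in KO). Paired by replicate number, the log2 change was 0.08, 0.19 and 0.33 in WT and -0.44, -0.35 and -0.34 in KO for numbers 1, 2 and 3. The interaction was -0.58 (SE 0.22, edgeR p 0.0226), which did not pass after adjustment over all tested genes (adjusted p 1.00). Opposite directions under all 3 numbers were seen for 324 genes, 2.05% of those tested, so CDK1 is 1 of many. Leaving out 1 library at a time placed the interaction between -0.65 and -0.48.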

How the results depend on the processing

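The number of the 44 genes called for butyrate in KO was the result that moved most, from 4 to 0 with library size alone or only the 2 KO groups, 1 with at least 10 counts in every library, 8 with DESeq2, 14 with the replicate block and 15 without the 4 libraries numbered 1, and it ranged from 0 to 8 when 1 library was left out. The count over all tested genes went from 537 to 472, 479, 304, 1538, 1852 and 2164 in the same order of settings. It ranged from 48 to 1039 when 1 library was left out. For butyrate in WT the count of 0 became 1 with DESeq2 (CKS1B), 2 with the block and 3 without the libraries numbered 1, and ranged from 0 to 3 when 1 library was left out, the 3 being reached without treated WT replicate 1. Over all tested genes the count went from 372 to 1331, 1361 and 1884. With 1 library left out it ranged from 43 to 1243, the 1243 also without treated WT replicate 1. For genotype the counts ranged from 2 to 3 untreated and from 2 to 5 treated when 1 library was left out, and the treated count was 2 with only the groups compared and 6 with the block or DESeq2. All tested genes called ranged from 2485 to 4318 untreated and from 2014 to 3477 treated when 1 library was left out. Treated, they were 1802 with only the groups compared, 4612 with the block and 3983 with DESeq2. The treated genotype median of -0.07 became 0.016 with library size alone, -0.10 with at least 10 counts, -0.14 without the libraries numbered 1 and -0.092 with only the groups compared, and the interaction median of -0.23 became -0.11 with library size alone. Over the fits leaving out 1 library the medians ranged from -0.26 to -0.10 (butyrate in WT), -0.48 to -0.37 (butyrate in KO), 0.023 to 0.18 (genotype untreated), -0.14 to -0.014 (genotype treated) and -0.29 to -0.10 (interaction), and the interaction count stayed at 0 in all 12. Of 356 values of single genes under the settings other than leaving out 1 library, 320 kept their direction and their side of the threshold, 16 no longer passed, 9 newly passed and 11 changed sign. The causes of these shifts were not tested. The block changed no call of a listed gene other than those named in the report.

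PLK1 in WT turned from 0.14 to -0.0060 with the block and -0.63 without the libraries numbered 1, and TOP2A in WT to -0.027 without them. In KO, AURKB turned to 0.059 with library size alone and 0.019 with at least 10 counts, and TOP2A to 0.074 and 0.034 under the same settings. For treated genotype, PLK1 turned to 0.12 with library size alone, 0.019 with the block and 0.32 without the libraries numbered 1, and CCNB1 to 0.066 without them. Leaving out 1 library, values ranged for butyrate from -0.59 to 0.40 (PLK1 in WT), -0.19 to 0.048 (AURKB in KO) and -0.19 to 0.062 (TOP2A in KO), for genotype from -0.032 to 0.17 (CCNB1 untreated), -0.36 to 0.21 (CCNB1 treated) and -0.38 to 0.67 (PLK1 treated), and for the interaction from -0.39 to 0.19 (CCNB1), -0.84 to 0.24 (PLK1) and -0.075 to 0.30 (SPC25). In the simulation for butyrate in KO, run over all 15805 tested genes, 7.69% of 2-fold changes were called. That share holds for a small set of genes drawn at random from all levels, and it was not measured for the 44 listed genes alone. For 23 of the 44, the 95% interval of the log2 fold change in KO excluded a doubling or a halving. A listed gene not called there may have changed, but for those 23 a 2-fold change lay outside the interval.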
